A study of Mus musculus with 2 samples.

Results

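Mir21a, Mir214, Mir199a-1, Mir199a-2 and Mir199b encode miR-21 and the miR-199 and miR-214 miRNAs, which are known from fibroblasts and other mesenchymal cells. These 5 genes were taken by their GENCODE M21 symbols from the 2202 miRNA genes of the count tables, and all 5 have a row in both tables. The hearts came from female mice of the strain B6CASTF1/J, an F1 cross between C57BL/6 and CAST mice, at 36 days of age by the age field, where a free-text label has months. The series forms 1 group of 2 libraries, biological replicates 1 and 2, made from total RNA by a multiplexed miRNA protocol with a size range under 30. No allele, treatment or second condition is given in the labels. Each heart has its own biosample record and number, while both records carry the same donor code. Every p-value below asks only whether these 2 libraries differ beyond counting error. With 1 library per heart, a difference between hearts and one from library preparation cannot be told apart. The libraries were made from whole heart, so fewer cells of a type and less RNA per cell cannot be told apart, and no value below was measured in fibroblasts alone.

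A miRNA is cut from the arms of a hairpin transcript and pairs with messenger RNAs mainly through its seed, bases 2 to 8 of the mature strand. miR-21 is abundant in cardiac fibroblasts, where it is known to repress Spry1, an inhibitor of MAP kinase signalling, and it has been studied for its part in scarring of the stressed heart. miR-214 and miR-199a are cut from Dnm3os, a noncoding transcript made from the strand opposite the dynamin gene Dnm3, under control of the mesenchymal factor Twist1 in development. miR-214 is known to repress the sodium-calcium exchanger Slc8a1, miR-199a-5p the hypoxia factor Hif1a, and miR-199b-5p the kinase Dyrk1a, which acts on calcineurin and NFAT signalling. miR-199a-3p is known for promoting division of cardiomyocytes.

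The mature strands are shown because their sequences set which reads could be counted at which gene. They are from RefSeq on GRCm38.p6, written 5′ to 3′ with the seed in capitals.
miR-21a-5p: uAGCUUAUcagacugauguuga
miR-21a-3p: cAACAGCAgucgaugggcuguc
miR-214-3p: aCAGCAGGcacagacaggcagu
miR-214-5p: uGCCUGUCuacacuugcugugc
miR-199a-5p: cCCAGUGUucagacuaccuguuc
miR-199a-3p and miR-199b-3p: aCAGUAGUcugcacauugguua
Each of the miR-21a and miR-214 strands occurred in 1 of the 2202 annotated hairpins. The miR-199a-5p strand occurred in 2, Mir199a-1 and Mir199a-2, and the 3p strand occurred in all 3 miR-199 hairpins without a difference.

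The 3 miR-199 hairpins are printed whole to show that the stretches they share are those of the mature strands. Capitals mark the stretch that matches miR-199a-5p and the 3p strand.
Mir199a-1: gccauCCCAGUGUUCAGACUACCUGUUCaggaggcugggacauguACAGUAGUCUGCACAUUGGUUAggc
Mir199a-2: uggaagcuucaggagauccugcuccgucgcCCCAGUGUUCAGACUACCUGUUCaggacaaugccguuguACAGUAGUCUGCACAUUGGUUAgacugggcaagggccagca
Mir199b: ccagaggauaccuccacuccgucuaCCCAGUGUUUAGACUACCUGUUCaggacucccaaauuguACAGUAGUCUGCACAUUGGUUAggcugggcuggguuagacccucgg
The 5p stretch of Mir199b differs from miR-199a-5p by 1 substitution over 23 bases, C10U, with the base of miR-199a-5p given before the position and positions counted from the 5′ end of miR-199a-5p. That base lies outside the seed, so the seed is the same. A read of the exact miR-199a-5p strand needs 1 more base at its 5′ end, or 5 more at its 3′ end, before it is found in only 1 annotated hairpin. A read of the exact 3p strand needs 5 more bases at its 5′ end or 2 at its 3′ end to be found only in Mir199a-2. At Mir199b the 3p strand needs 5 at its 5′ end or 4 at its 3′ end, and at Mir199a-1 it needs 4 at its 5′ end, while no extension at its 3′ end within the hairpin suffices.

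Windows of 22 bases were compared along the whole hairpins, most of which is not shared. None of the 71 windows of Mir21a and none of the 89 windows of Mir214 recurred in another annotated hairpin. Of the windows of Mir199a-1, 13 of 49 recurred (26.5%), of Mir199a-2 12 of 89 (13.5%) and of Mir199b 8 of 89 (8.99%). All recurring windows were shared among the 3 miR-199 genes and no other gene. The search covered annotated hairpins with exact matches and not the rest of the genome.

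**Figure D1:**
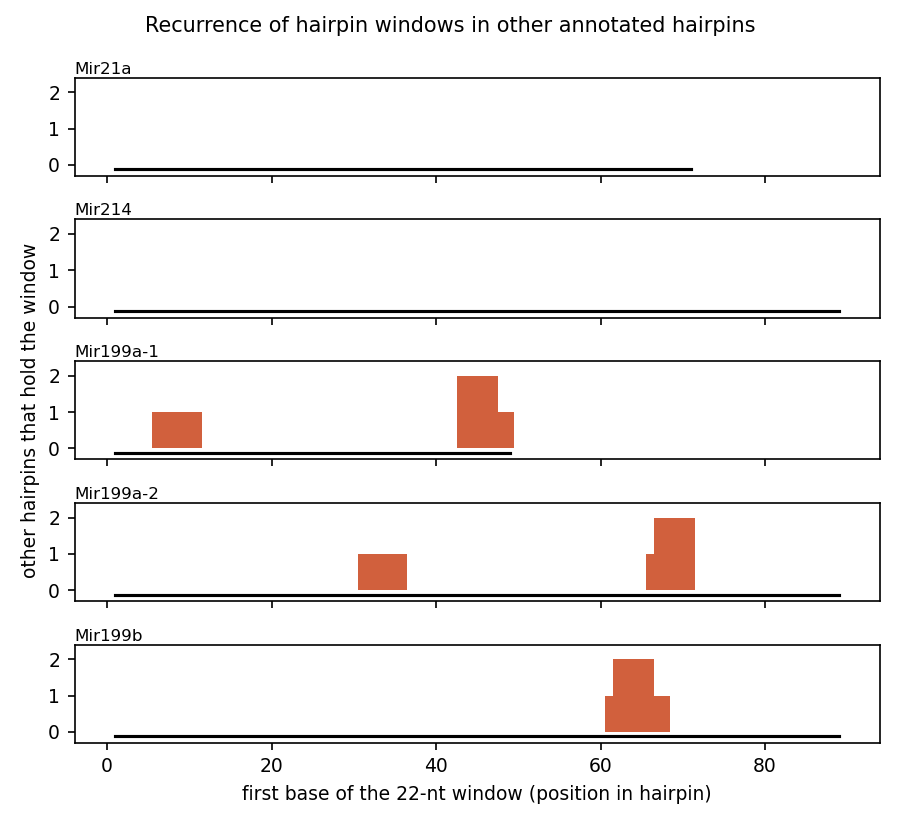
Number of other annotated hairpins (y axis) that hold each window of 22 bases, by the first base of the window in the hairpin (x axis); the black line spans the windows searched. Mir21a and Mir214 have none, and each miR-199 gene shares the windows around its 3p strand with 2 other hairpins.

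The genes lie at 4 loci on mm10. Mir21a (ENSMUSG00000065455.1, chr11:86584067-86584158, minus strand) lies within an annotated UTR of Vmp1, an autophagy gene on the same strand. Mir214 (ENSMUSG00000065516.1, chr1:162223368-162223477, plus strand) and Mir199a-2 (ENSMUSG00000070126.1, chr1:162217814-162217923, plus strand) overlap exons of Dnm3os and are 5444 bases apart. Both are on the strand opposite to Dnm3 and overlap none of its exons. Mir199a-1 (ENSMUSG00000065547.1, chr9:21496495-21496564, minus strand) lies opposite an intron of Dnm2, and Mir199b (ENSMUSG00000092807.1, chr2:32318460-32318569, plus strand) opposite an intron of Dnm1. Each of the 3 miR-199 genes is thus antisense to a dynamin gene.

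Replicate 1 held 5606848 reads and replicate 2 held 4990632. On the gene's strand, 2074961 and 1766135 of them were assigned to miRNA genes, and these are the library sizes behind the CPM, sense counts per 1000000 assigned reads. Another 2355334 and 1985503 reads mapped to several places and were given to no gene. The 95% intervals are Clopper-Pearson exact intervals. Like the limits given for 0 counts, they cover counting error only, because PCR copies of 1 molecule cannot be recognised without molecular identifiers.

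Mir21a and Mir214 were the abundant members in assigned reads. In sum the 5 genes stood at 2599 CPM (replicate 1) and 3689 CPM (replicate 2), a mean of 3144 ± 771 CPM (SD, n = 2). This is 0.314% ± 0.0771 of the reads assigned to miRNA genes, which leave out reads mapped to several places. Mir21a and Mir214 held 98.5% of the members' counts in replicate 1 and 99.3% in replicate 2, so this sum describes these 2 genes. A small RNA read covers a mature strand and not the hairpin, so CPM were not divided by hairpin length. Whether strands differ in how well they were captured was not tested.

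Mir21a had 3392 counts in replicate 1 and 3354 in replicate 2. These are 1635 CPM (1580 to 1691) and 1899 CPM (1835 to 1964), a mean of 1767 ± 187 CPM (SD, n = 2). By placed reads, Mir21a ranked 52 and 44 among the 2202 genes, so that 97.6% and 98.0% of genes had fewer counts. Of the 2202 genes, 71.5% had no counts in either library. The ranks leave out the reads mapped to several places, 2355334 in replicate 1 and 1985503 in replicate 2. Genes whose strands are shared between hairpins can therefore rank too low. The CPM intervals of Mir21a did not overlap, but whether this is a difference depends on the scaling, as given below for the ratios.

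Mir214 had 1922 counts in replicate 1 and 3118 in replicate 2. These are 926 CPM (885 to 969) and 1765 CPM (1704 to 1828), a mean of 1346 ± 593 CPM (SD, n = 2). By placed reads, it ranked 75 and 46, with the same limits as the ranks of Mir21a. The heart of replicate 2 had the higher level, and the counting intervals of the libraries did not overlap.

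Mir199b had 66 counts in replicate 1 and 30 in replicate 2. These are 31.8 CPM (24.6 to 40.5) and 17.0 CPM (11.5 to 24.2), a mean of 24.4 ± 10.5 CPM (SD, n = 2), at ranks 198 and 228. Here the heart of replicate 1 had the higher level, and the intervals lay just apart. The 5p stretch of this hairpin occurs in no other annotated hairpin, so a read of it has 1 exact place among them. The counts do not say which arm the reads came from.

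Mir199a-2 had 13 counts in replicate 1 and 14 in replicate 2. These are 6.27 CPM (3.34 to 10.7) and 7.93 CPM (4.33 to 13.3), a mean of 7.10 ± 1.18 CPM (SD, n = 2), at ranks 281 and 280. The levels lay within each other's counting interval. Mir199a-1 had 0 counts in both libraries, which allows up to 3 counts, a limit of 1.45 CPM for replicate 1 and of 1.70 CPM for replicate 2; the two-sided exact interval, which is wider, reaches 1.78 and 2.09 CPM. Of all 2202 genes, 1574 (71.5%) had 0 counts in both.

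The miR-199 values are levels of the reads that could be placed and not of the mature miRNAs. The 3 genes held 79 counts in replicate 1 and 44 in replicate 2, against 2355334 and 1985503 reads mapped to several places. Any read of the exact miR-199a-5p or 3p strand fits 2 or 3 of these hairpins, and how many of those reads are miR-199 cannot be read from the tables. The 0 of Mir199a-1 and the low values of Mir199a-2 therefore set no upper bound on miR-199a in these hearts.

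**Figure D2:**
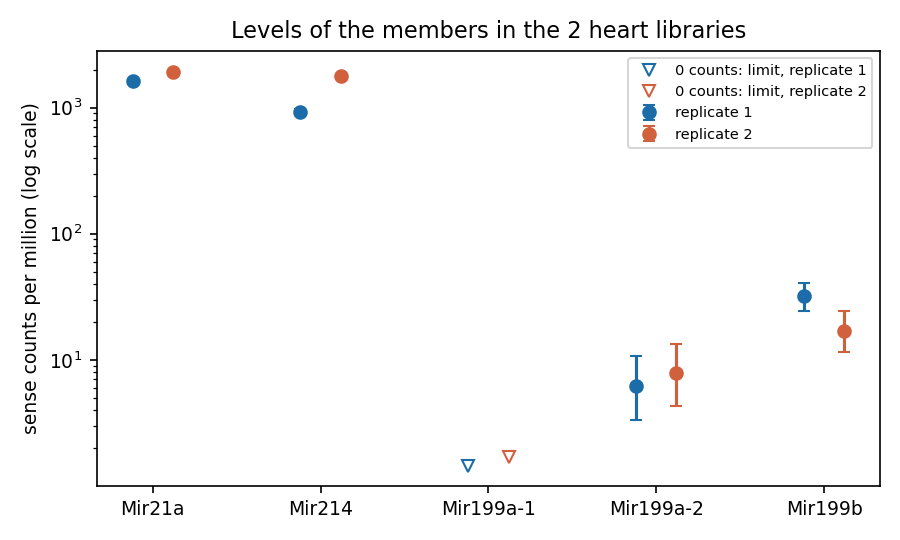
Sense counts in CPM (y axis, log scale) of the members (x axis) in replicate 1 and replicate 2; points are libraries, bars are 95% exact counting intervals, and open triangles mark the limit that 0 counts allow. Mir21a and Mir214 lie between 926 and 1899 CPM, Mir199a-2 and Mir199b between 6.27 and 31.8 CPM, and Mir199a-1 is at 0.

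In placed reads, the order of mean levels was Mir21a, Mir214, Mir199b, Mir199a-2 and Mir199a-1. The means of the neighbours Mir21a and Mir214 differed by less than the SD of Mir214 over the libraries. Within a library, the ratio of Mir21a to Mir214 was 1.76 (exact interval 1.67 to 1.87) for replicate 1 and 1.08 (1.02 to 1.13) for replicate 2, so the order was the same in both hearts. The ratio of Mir199b to Mir199a-2 was 5.08 (2.77 to 10.03) for replicate 1 and 2.14 (1.10 to 4.37) for replicate 2. The 5p stretch of Mir199b occurs in 1 annotated hairpin, while both mature strands of Mir199a-2 recur in another. This ratio and the order of the miR-199 genes therefore do not compare the mature miRNAs.

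Mir214 and Mir199a-2, which share the transcript Dnm3os, stood far apart in placed reads. Mir214 exceeded Mir199a-2 by 148 times (86.3 to 278) in replicate 1 and by 223 times (133 to 408) in replicate 2. Mir214 has no recurring window, while both mature strands of Mir199a-2 recur in another hairpin, so this ratio does not compare the mature miRNAs. Mir214 exceeded Mir199b by 29.1 times (22.8 to 37.8) and by 104 times (72.7 to 154).

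The comparison of the hearts asked how far each member differed between the libraries beyond counting error. Ratios are replicate 2 over replicate 1, with library sizes corrected by TMM, a trimmed mean that discounts the most divergent genes. An exact two-sided binomial test asked how the counts of a gene split between the hearts, for the 359 genes whose counts summed to at least 10, with Benjamini-Hochberg adjustment over all of them. Of the 5 members, 4 reached 10 counts, and 2 of them differed at an adjusted p under 0.05. Over all tested genes, 44.3% differed, 20.1% with the higher level in replicate 2 and 24.2% with the higher level in replicate 1, so the members' share is near the background and is not a result about them. The test compares 2 libraries, not conditions.

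Replicate 2 held 1.69-fold more Mir214 (exact interval 1.60 to 1.79), a log2 ratio of 0.76 (0.68 to 0.84; adjusted p = 4.36e-75, exact binomial test). Of the 70 tested genes that averaged at least 1000 CPM, 90% differed by this test, 41.4% with the higher level in replicate 2. Among these 70 genes, 14 had an absolute log2 ratio at least as large as that of Mir214, with Mir214 itself included. The median absolute log2 ratio of the 70 genes was 0.29. A difference of this size between the hearts was thus not rare at this level.

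Mir199b went the other way, 2.09-fold higher (1.35 to 3.36) in replicate 1, a log2 ratio of -1.06 (-1.75 to -0.43; adjusted p = 0.00189, exact binomial test). Among 219 tested genes with a mean under 100 CPM, 47, with Mir199b itself included, had an absolute log2 ratio at least as large. The median absolute log2 ratio of the 219 genes was 0.48. Its 96 counts in all make the interval wide.

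Mir21a had a log2 ratio of 0.05 (-0.02 to 0.12; adjusted p = 0.305, exact binomial test), and the interval holds no difference over 1.08-fold. Its call depended on the scaling. With library size alone, which raises the median log2 ratio of the tested genes by 0.17, Mir21a had a log2 ratio of 0.22 (adjusted p = 3.09e-09, exact binomial test), and with DESeq2 size factors it was -0.0163 (adjusted p = 0.816). The DESeq2 factors came out at 1 for both libraries, so the latter is the ratio of the raw counts, 3354 against 3392. No direction is given for Mir21a. Mir199a-2 had a log2 ratio of 0.17 (-1.03 to 1.38; adjusted p = 0.94, exact binomial test), an interval from 0.490-fold to 2.60-fold. The higher level of Mir214 in replicate 2 and of Mir199b in replicate 1 held under each scaling tried.

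**Figure D3:**
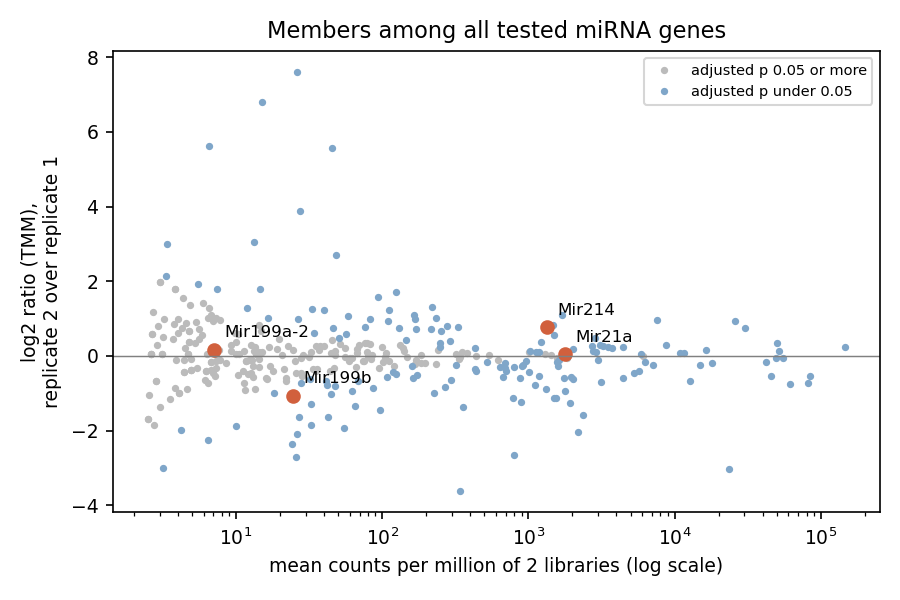
Log2 ratio of replicate 2 over replicate 1 (y axis, TMM scaling) against the mean CPM of both libraries (x axis, log scale) for the 359 tested genes; blue points have an adjusted p under 0.05, grey points do not, and orange points are the members. Mir214 lies above 0, Mir199b below, and both lie among other genes of their level.

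The members' counts were also set against each other between the libraries, which needs no library size. Of 6 pairs among the 4 members with 10 or more counts, 3 had a 95% exact interval of the odds ratio that excluded 1. The log2 ratio of Mir214 exceeded that of Mir199b by 1.84 (1.19 to 2.51), and that of Mir21a exceeded that of Mir199b by 1.12 (0.47 to 1.80). The value for Mir21a over Mir214 was -0.71 (-0.82 to -0.61), so Mir214 was higher in replicate 2 relative to Mir21a whatever the scaling. Mir214 and Mir199a-2 differed by 0.59 (-0.62 to 1.79), an odds ratio of 1.51 with an interval from 0.650 to 3.46, which holds no difference as well as a large one. The other 2 pairs, Mir21a with Mir199a-2 at -0.12 (-1.33 to 1.08) and Mir199a-2 with Mir199b at 1.23 (-0.15 to 2.63), also held 0.

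**Figure D4:**
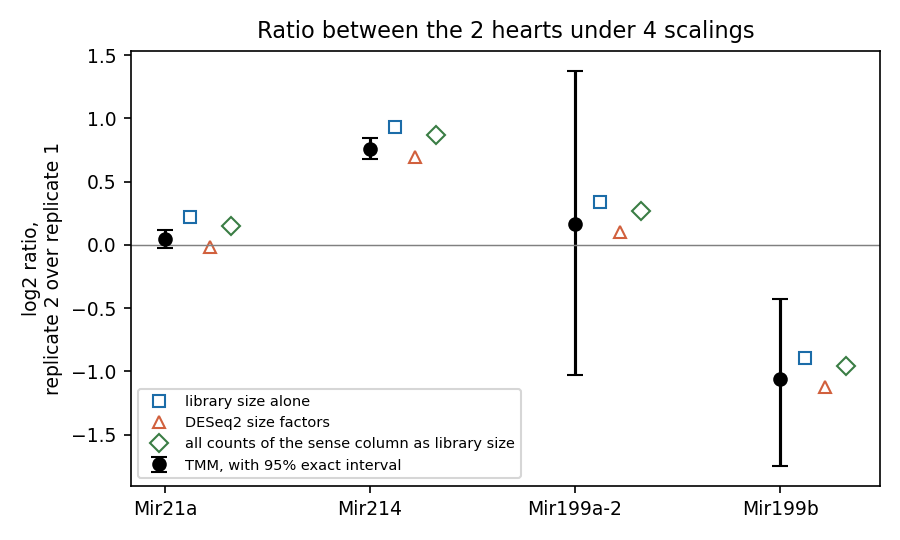
Log2 ratio of replicate 2 over replicate 1 (y axis) for the 4 members with 10 or more counts (x axis); black points use TMM scaling with 95% exact intervals, and open symbols use 3 other scalings. Mir214 stays above 0 and Mir199b below under all 4 scalings, while Mir21a lies on either side of 0.

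No reads were counted at the other genes found in RefSeq with the seeds of miR-21a-5p and miR-214-3p. These genes were found by a sequence search added after the values were seen. It covered the RefSeq mature strands used here, which hold none named miR-199b-5p and may lack others. Further genes with these seeds may therefore exist. Mir21c, on chromosome 8, shares the seed of miR-21a-5p, and Mir761, on chromosome 4, shares that of miR-214-3p.
miR-21a-5p: uAGCUUAUcagacugauguuga
miR-21c: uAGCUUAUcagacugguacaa
miR-21b: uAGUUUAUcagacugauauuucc
miR-214-3p: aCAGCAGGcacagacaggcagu
miR-761: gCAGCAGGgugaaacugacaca
Mir21c and Mir761 each had 0 counts in both libraries, which again allows up to 1.45 and 1.70 CPM. Mir21b, on chromosome 3, differs from miR-21a-5p in its seed by C4U, counted from the 5′ end with the base of miR-21a-5p given before the position, and also had 0 counts in both. Among the genes whose mature strand carries the seed of miR-21a-5p or miR-214-3p in RefSeq, reads were thus counted only at Mir21a and Mir214.

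Around the members, 1 other annotated miRNA gene lay within 10 kb, Gm23363, which is 116 bases from Mir199b on the same strand. It had 0 counts in replicate 1 and 3 in replicate 2. Reads on the strand opposite to a member numbered 1 in each library at Mir214, 1 in replicate 2 at Mir21a and 0 elsewhere.

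Genes with levels most like a member's were taken by the distance between log2(CPM + 1) values over the 2 libraries. Nearest to Mir21a were Mir127 with 1849 ± 96.9 CPM (SD, n = 2), Mir342 with 1606 ± 54.5 CPM and Mir676 with 1569 ± 88.5 CPM. Nearest to Mir214 were Mir150 with 1463 ± 696 CPM, a miRNA of lymphocytes, Mir145a with 1497 ± 521 CPM, a miRNA of smooth muscle, and Mir27a with 1219 ± 319 CPM. All 3 had the higher level in replicate 2, as the measure requires of genes near Mir214. Nearest to Mir199b were Mir5113, Mir3074-1 and Mir7j, between 21.9 ± 4.51 and 28.0 ± 7.50 CPM, and nearest to Mir199a-2 were Mir494, Mir6900 and Mir6516, with 14 or 15 counts in each library. With 2 libraries, many genes can lie as near, and the lists name neighbours in level only.

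Other miRNA genes linked to heart fibrosis moved both ways between the hearts. Of 14 genes listed as linked to less fibrosis, 13 were tested, 6 were higher in replicate 2, 3 were higher in replicate 1 and 4 did not pass. Their median log2 ratio was 0.21 against -0.01 over all tested genes. Of all tested genes, 20.1% were higher in replicate 2 and 24.2% in replicate 1. Among those that averaged at least 1000 CPM, 90% differed. Mir29a, of the miR-29 family that represses collagen genes, was 1.16-fold higher in replicate 2 at 3724 ± 686 CPM (SD, n = 2), while Mir29c of the same family was 1.99-fold higher in replicate 1 at 227 ± 89.4 CPM. Of 7 genes listed as linked to more fibrosis, 2 passed towards replicate 2 and 3 towards replicate 1, with a median log2 ratio of 0.06. With library size alone the calls were 7 and 2 for the list linked to less fibrosis and 2 and 2 for that linked to more, and with DESeq2 size factors they were 6 and 3 and 1 and 3, each towards replicate 2 and then replicate 1. In the column without regard to strand, where 11 genes of the list linked to less fibrosis could be tested, its calls were 5 and 3 and its median turned to -0.13, so no direction is given for that list. In the list linked to more fibrosis, Mir34a, which p53 induces, was 2.38-fold higher in replicate 1 at 1936 ± 982 CPM. Mir125b-1, of the same list, was 2.47-fold higher in replicate 2 at 218 ± 145 CPM. Of the 19 list genes matched to RefSeq mature strands, 10 have a strand that occurs in 2 annotated hairpins (the miR-125b, miR-24, miR-26a, miR-29b and miR-30c pairs), so their counts share the limit given for miR-199. The strands of the other 9, Mir29a, Mir29c and Mir34a among them, occur in 1 annotated hairpin each. For Mir133a-1 and Mir133a-2 no mature strand was matched, so whether they share this limit was not checked.

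Markers of other cell types differed between the hearts beside Mir214 and Mir199b, and their part in these differences was not tested. Of all tested genes 44.3% differed, as did 90% of those that averaged at least 1000 CPM. A call alone thus does not set a marker apart. The sum of the 3 erythroid genes was 45889 CPM against 7589 CPM (replicate 1, then replicate 2, here and below), and all 3 were higher in replicate 1. Mir451a held most of this sum, with 41391 and 5739 CPM. The genes differed unequally, 8.11-fold for Mir451a, 4.10-fold for Mir144 and 1.34-fold for Mir486. Endothelial genes (4 listed, 3 tested) summed to 99059 and 66887 CPM, with Mir126a and Mir221 higher in replicate 1. Cardiomyocyte genes (3 of 3 tested) summed to 6143 and 8701 CPM, with Mir208a and Mir499 higher in replicate 2. Smooth muscle and pericyte genes (2 of 3 tested) summed to 43118 and 44232 CPM without TMM scaling, but went both ways in the test: Mir145a was 1.47-fold higher in replicate 2, and Mir143 1.11-fold higher in replicate 1 (with library size alone it was not called and the sign turned). Leukocyte genes (5 of 6 tested, Mir142b at 0) summed to 5448 and 6481 CPM, with 3 called towards replicate 2 and 2 towards replicate 1, among them Mir142, 2.56-fold higher in replicate 1. The defining cardiomyocyte gene Mir208a, inside the myosin gene Myh6, was at 4439 ± 891 CPM (SD, n = 2). With library sizes that leave out the erythroid genes, chosen after seeing the data, Mir214 had a log2 ratio of 0.87 and Mir199b of -0.95, and the pair values above do not use a library size. The fibroblast name rests on what these miRNAs are known for: the tables hold no messenger RNA, so fibroblast markers such as collagen genes were not measured here.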

How the data were processed

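Raw read counts per miRNA gene were used as deposited, 1 table per library, made on mm10 with GENCODE M21 per the deposited notes. Which aligner and counter made them is not given in the sources used here. Each table has 3 columns of counts (without regard to strand, sense and opposite), 2202 gene rows and 4 rows that name no gene, which hold 63.0% of reads in replicate 1 and 64.6% in replicate 2 and were left out of library sizes. All 2202 IDs matched GENCODE M21. The sense column was used.

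CPM are counts per 1000000 sense counts over gene rows. TMM factors came from edgeR 4.0.16, size factors for an alternative from DESeq2 1.42.0, and tests from scipy 1.17.1. Log2 ratios used a prior count of 0.5. The binomial test and its intervals were tested on simulated data with counting error alone and plain library sizes. That setting cannot show how they hold where PCR copies or other spread add to counting error. With 1 library per heart and no second group, no quasi-likelihood test was possible.

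Named genes were the members, the 3 genes nearest in level to each tested member, and genes of the fibrosis, neighbour and cell type lists. The members and lists were chosen with earlier results of these data known. Mature and hairpin sequences are from RefSeq (GRCm38.p6), and all 5 hairpins were identical to the GENCODE M21 transcripts.

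Alternatives were other library sizes and scalings, the column without regard to strand, other count minimums, another prior count and each library left out.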

Additional observations from a re-analysis of the deposited data

How the results depend on the processing

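With all reads of the sense column as library size, mean levels were 639 CPM for Mir21a, 484 for Mir214, 2.56 for Mir199a-2, 8.89 for Mir199b and 1134 for the 5 members together. With the column without regard to strand, whose gene total is smaller because reads at genes facing another miRNA gene are ambiguous there, they were 2445 CPM for Mir21a, 9.81 for Mir199a-2 and 4345 together. The log2 ratio of Mir21a was -0.0163 with DESeq2 size factors, which are 1 for both libraries and so leave the raw counts, a change of sign without a call, and it passed the test at 0.22 with library size alone, 0.15 with all reads as library size and 0.16 with library sizes that leave out the erythroid genes. Of the calls over all tested genes, 72 pointed to replicate 2 and 87 to replicate 1 with TMM, against 103 and 67 with library size alone. The log2 ratio of Mir214 stayed between 0.70 and 0.93 and that of Mir199b between -1.12 and -0.89, past the threshold under every alternative run. Mir199a-2 was not tested with a minimum of 50 counts. Leaving out 1 of 2 libraries gives the other library's level, with a range of 1635 to 1899 CPM for Mir21a and 926 to 1765 CPM for Mir214. No paired analysis was possible because the series has 1 group. Depth limits Mir199a-2 and Mir199b, whose counts were 13 to 66 per library.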
